A study of Mus musculus with 8 samples.

Results

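The genes described here encode subunits of chromatin repressor complexes that are described as partners or targets of TFII-I, a transcription factor whose gene is Gtf2i. They were chosen by name from the PRC2, LSD1-CoREST and class I histone deacetylase complexes by a rule that uses no measured value, although the list was drawn up with earlier results of these arrays known. The 9 genes are Ezh2, Ezh1, Eed, Suz12, Kdm1a, Rcor1, Hdac1, Hdac2 and Hdac3. They were read by 16 of the 56605 probes on the array, and all 9 were among the 19023 genes tested. Ezh2 had 5 probes, Suz12, Hdac1 and Hdac3 had 2 each, and the others had 1 each.

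RNA was measured on 8 one-colour Agilent mouse arrays, hybridised with cRNA from TEC100.4, an immortalised mouse thymic epithelial cell line labelled as of cortical origin. The 4 groups of 2 arrays each were the δ line (carrying a doxycycline-inducible mutant TFII-I of the δ isoform) with doxycycline, the δ line without it, the β line (carrying the inducible mutant β isoform) with doxycycline, and the β line without it. Treated cells had doxycycline for 24 h, and 200 ng of total RNA was labelled per array. All arrays shared the TEC100.4 background, the labels do not say whether a line is 1 clone, and no line without an inducible insert was analysed here. The untreated samples carry a genotype label that names wild-type TFII-I, whereas by title they are mutant-line cells that got no doxycycline, and the groups here follow the titles. The labels do not tell whether replicate arrays stem from different cultures, so the p-values measure the spread between arrays, which may be technical.

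PRC2, in which EED and SUZ12 hold the catalytic subunit EZH2 or its paralogue EZH1, methylates a lysine of histone H3 and keeps developmental genes silent. LSD1, the product of Kdm1a, removes active methyl marks from histone H3 and is anchored to nucleosomes by CoREST, the product of Rcor1. HDAC1 and HDAC2 remove histone acetyl groups within the CoREST, Sin3 and NuRD complexes, and HDAC3 does so within NCoR and SMRT complexes. TFII-I binds initiator and E-box elements and has been reported to associate with HDAC3 and with LSD1-containing complexes.

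Array quality bore on the values as follows. Per array, 43345 to 45080 probes were well above background with doxycycline and 39512 to 40698 without it, so the treatments did not overlap. All 16 member probes were well above background on 8 of 8 arrays with none saturated. Replicate arrays correlated at r of 0.9937 to 0.997 across genes, except the δ line without doxycycline at 0.9651, which rose to 0.9928 when probes in uneven patches were left out. Of 1008 tiles on replicate 1 of that group, 97 departed from the array by more than 0.3 log2 units, against 0 to 9 tiles on the other arrays. One member probe, the brightest for Ezh2, lay in such a tile. All 8 arrays were on 1 slide, with the doxycycline arrays in row 1 and the untreated arrays in row 2, so slide row and treatment cannot be told apart. Each line had its own slide columns, so column and line cannot be told apart either.

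The labelled cell type was checked against marker genes. Krt8 and Krt18, keratins of simple epithelium, and the listed cortical thymic genes Ctsl, Cxcl12, Ccl25, Foxn1 and Prss16 were well above background on 8 of 8 arrays. Of these, Foxn1 and Prss16 were dim, at -4.87 to -4.23 and -4.05 to -2.43 log2 units relative to the array's 75th percentile. Ly75 and Dll4 were well above background on 7 of 8 arrays, and Cdh1 on 3 of 8. Psmb11, a proteasome subunit gene of cortical thymic epithelium, and Cd83 were above background on 0 of 8 arrays. Epcam was above background on 1 of 8, the array with the uneven patches. The fibroblast collagen genes Col1a1 and Col1a2 stood 6.97 to 7.82 log2 units above the array's 75th percentile. Of the 11 leukocyte genes 8 were well above background on 8 of 8 arrays, among them Cd4 at 3.74 to 4.82, Itgam at 3.18 to 3.77 and Csf1r at 1.86 to 2.86 on their brightest probes. A dimmer probe of Cd4 stood at -2.37 to -1.84 and one of Itgam at -2.76 to -1.88. Ptprc, Cd3g and Rag1 were above background on 0 of 8.

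Expression of Gtf2i was read by 3 probes. The brightest had 5.28 and 5.26 log2 units above each array's 75th percentile (the scale used throughout) in the δ line with doxycycline and 5.29 and 5.07 in the δ line without it. In the β line it had 4.58 and 4.66 with doxycycline and 4.39 and 4.63 without. It was not called with doxycycline in either line. A dimmer probe, A_55_P2040907, had -1.05 and -1.01 in the β line with doxycycline against -2.13 and -2.56 without it, a difference of 1.31 ± 0.19 (SE; limma adjusted p = 0.0931 over all probes). On the same probe the δ line had -1.80 and -1.53 with doxycycline against -1.67 and -1.93 without it. The brightest probe was higher in the δ line than in the β line under both treatments, by 0.65 with doxycycline (adjusted p = 0.0207) and by 0.67 without it (adjusted p = 0.0195). These calls were lost in 5 and 6 of 17 alternatives, while the average over both treatments, 0.66, passed in all 16. With the mean over probes the difference with doxycycline was 0.18 (adjusted p = 0.30) and the average 0.39, which still passed. The probe A_55_P2040907 ran the other way between the lines with doxycycline, by -0.64 (adjusted p = 0.101 over all probes), and the same way without it, by 0.54. The remaining probe, A_52_P442585, ran the same way as the brightest. It was higher in the δ line by 0.51 with doxycycline and 0.61 without it (limma adjusted p = 0.0406 and 0.0232 over all probes). With doxycycline it differed by 0.05 in the δ line and 0.15 in the β line. No source used here says whether any of the 3 probes reads the induced transcript.

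The start-site sequences of the genes that differed between the lines over both treatments, Ezh1, Rcor1 and Eed, are shown with that of Ezh2, the paralogue of Ezh1. They come from RefSeq on GRCm38.p6, run from 250 bases before to 50 bases after the start, and are given 5′ to 3′ on the gene's strand. Of the 9 member genes, 7 matched the promoter table. Capitals mark E-boxes (CANNTG, the element to which TFII-I and other factors bind), E2F sites (TTTCGCGC or TTTGGCGC) and GC boxes (GGGCGG), searched on both strands. The Ezh1 window lies at chr11:101226414-101226713 (minus strand), the Ezh2 window at chr6:47594981-47595280 (minus strand), the Eed window at chr7:89980927-89981226 (minus strand) and the Rcor1 window at chr12:111039117-111039416 (plus strand).
Ezh1: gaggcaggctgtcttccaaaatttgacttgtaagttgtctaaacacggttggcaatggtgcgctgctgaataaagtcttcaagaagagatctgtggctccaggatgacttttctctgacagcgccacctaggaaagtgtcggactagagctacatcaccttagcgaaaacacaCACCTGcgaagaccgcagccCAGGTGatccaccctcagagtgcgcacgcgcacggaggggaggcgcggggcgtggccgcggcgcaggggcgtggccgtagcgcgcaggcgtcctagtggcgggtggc
Ezh2: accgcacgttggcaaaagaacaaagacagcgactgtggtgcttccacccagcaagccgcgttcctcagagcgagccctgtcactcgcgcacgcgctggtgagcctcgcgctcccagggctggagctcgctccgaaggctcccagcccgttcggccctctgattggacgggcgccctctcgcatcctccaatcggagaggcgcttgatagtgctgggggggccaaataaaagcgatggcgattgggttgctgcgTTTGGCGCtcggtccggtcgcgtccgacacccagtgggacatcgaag
Eed: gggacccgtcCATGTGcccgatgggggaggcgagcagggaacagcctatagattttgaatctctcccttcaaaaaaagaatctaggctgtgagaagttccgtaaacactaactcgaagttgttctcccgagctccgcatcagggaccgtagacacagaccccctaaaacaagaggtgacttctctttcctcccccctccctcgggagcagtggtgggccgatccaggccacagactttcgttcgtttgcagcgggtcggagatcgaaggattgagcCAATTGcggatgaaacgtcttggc
Rcor1: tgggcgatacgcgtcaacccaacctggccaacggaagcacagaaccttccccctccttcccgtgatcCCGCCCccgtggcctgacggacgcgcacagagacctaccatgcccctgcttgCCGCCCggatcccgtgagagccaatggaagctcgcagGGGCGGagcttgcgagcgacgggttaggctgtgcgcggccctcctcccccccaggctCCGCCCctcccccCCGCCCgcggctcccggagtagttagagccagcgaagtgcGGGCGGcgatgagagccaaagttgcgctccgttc

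The Ezh1 window held 2 E-boxes, starting at positions -77 and -57 from the start site. The Eed window also held 2, at -240 and 27. An E-box of this loose form was present in 72.3% of 32851 promoters of the same length. The strict palindrome CACGTG, found in 7.15% of promoters, was in none of the 7 member windows. The Ezh2 window held an E2F site at position 4, a motif found in 0.813% of promoters, and no E-box. The Rcor1 window held 6 GC boxes, a motif present in 35.7% of promoters. GC content was 59.3% for Ezh1, 64.3% for Ezh2, 54.7% for Eed and 69.3% for Rcor1, against a median of 52.7% over all promoters. A match describes letters only, and binding was not measured.

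The first comparison was of the 2 cell lines, which differ in the TFII-I isoform they carry. Ezh1, which encodes the PRC2 methyltransferase that persists in slowly dividing cells, was the member that differed most. It had 3.90 and 3.85 in the δ line with doxycycline and 3.61 and 3.38 in the δ line without it, and 2.98 and 3.22 in the β line with doxycycline and 2.94 and 2.95 in the β line without it. The 4 δ arrays all lay above the 4 β arrays, and the group means ran from δ with doxycycline through δ without and β with doxycycline to β without. With doxycycline the difference was 0.78 ± 0.12 (SE, n = 2 and 2; limma adjusted p = 0.0121), and without it 0.55 ± 0.12 (adjusted p = 0.0392). Averaged over both treatments the difference was 0.66 ± 0.09 (95% interval 0.45 to 0.87; adjusted p = 0.00347), a 1.58-fold higher level, and this average passed in all 16 alternatives, at 0.60 to 0.72. With doxycycline the call was lost without β doxycycline replicate 1 (adjusted p = 0.0587), δ doxycycline replicate 1 (0.105) or δ doxycycline replicate 2 (0.0851). Without doxycycline it was lost in 8 of 17 alternatives, among them leaving out δ untreated replicate 1 (adjusted p = 0.136), either β untreated array (0.122 and 0.0995) or either δ doxycycline array (0.097 each), as well as median centring (0.0884), no filter on dim probes (0.0598) and a fit of only the 4 untreated arrays (0.153).

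**Figure D1:**
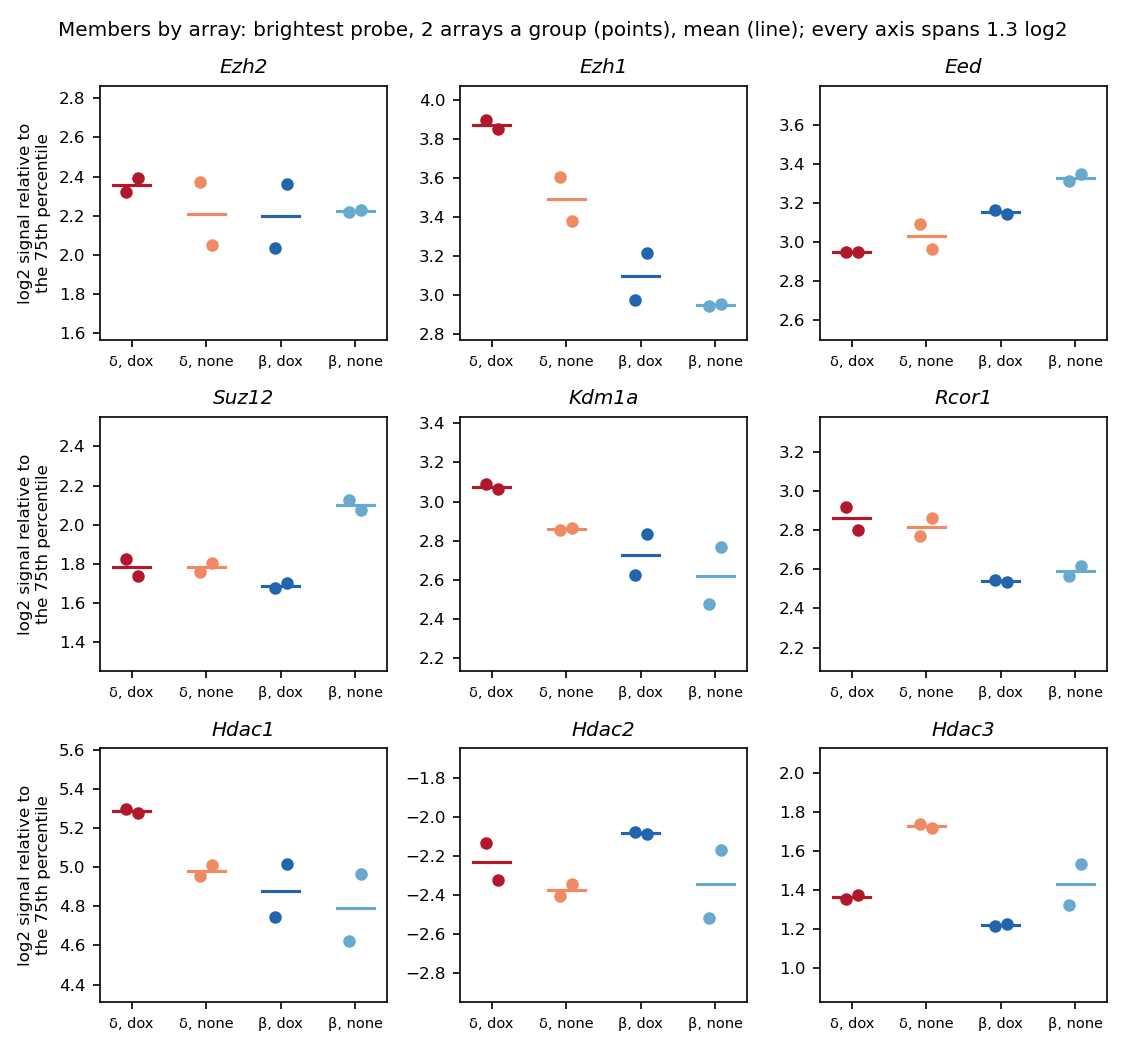
Log2 signal of the brightest probe of each member gene relative to the array's 75th percentile (vertical axis, log2 units), with each array as a point and the groups in the order δ with doxycycline, δ without, β with doxycycline, β without. Ezh1 shows the 4 δ arrays between 3.38 and 3.90, above the 4 β arrays between 2.94 and 3.22.

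Over both treatments, Rcor1 and Eed also passed. Rcor1, the CoREST scaffold, had 2.92 and 2.80 in the δ line with doxycycline and 2.77 and 2.86 without it, against 2.54 and 2.54 in the β line with doxycycline and 2.57 and 2.61 without it. The δ arrays lay above the β arrays under both treatments. The average difference was 0.27 ± 0.06 (SE; limma adjusted p = 0.028). Eed, the PRC2 subunit that recognises the methyl mark, ran the other way: it had 2.95 and 2.95 in the δ line with doxycycline and 3.09 and 2.97 without it, against 3.16 and 3.15 in the β line with doxycycline and 3.31 and 3.35 without it. The average difference was -0.25 ± 0.06 (adjusted p = 0.031). In neither treatment alone did Rcor1 or Eed pass. The Rcor1 average was lost in 7 of 16 alternatives: without either δ doxycycline array (adjusted p = 0.138 and 0.0792), δ untreated replicate 2 (0.0611), either β doxycycline array (0.0698 and 0.0722) or β untreated replicate 1 (0.0582), and with median centring (0.0523). The Eed average was lost in 9 of 16: without either δ doxycycline array (0.132 and 0.128), δ untreated replicate 2 (0.0706), either β doxycycline array (0.0787 and 0.0719) or either β untreated array (0.0504 and 0.0562), and with normexp correction (0.0594) or median centring (0.172).

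In all, 3 of 9 members were called over both treatments, against 24.6% of all genes, so the share of members called was not far from that of the array as a whole. In each treatment 1 of 9 was called, Ezh1, against 15.3% of genes with doxycycline and 13.2% without. Of the members, 6 lay above 0 and 3 below over both treatments, with a median of 0.22, where the median of all genes was -0.01 and 49.2% of all genes lay above 0.

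The remaining members did not pass over both treatments. Kdm1a, the LSD1 demethylase gene, had 3.09 and 3.06 in the δ line with doxycycline and 2.86 and 2.86 without it, against 2.62 and 2.83 in the β line with doxycycline and 2.48 and 2.77 without it. Its average difference was 0.29 ± 0.09 (adjusted p = 0.0654), and it passed in 4 of 16 alternatives. The brightest Hdac1 probe had 5.30 and 5.28 in the δ line with doxycycline and 4.95 and 5.01 without it, against 4.75 and 5.02 in the β line with doxycycline and 4.62 and 4.96 without it. The lines did not overlap with doxycycline and overlapped without it. Its average difference was 0.30 ± 0.11 (adjusted p = 0.0914), and Hdac3 one of 0.22 ± 0.07 (adjusted p = 0.0706). These 2 genes passed in 3 and 2 of 16 alternatives. Ezh2, the PRC2 methyltransferase of dividing cells, had 2.32 and 2.39 in the δ line with doxycycline and 2.37 and 2.05 without it, against 2.03 and 2.36 in the β line with doxycycline and 2.22 and 2.23 without it, so the lines overlapped under both treatments. It had an average difference of 0.07, with a 95% interval of -0.20 to 0.34 (adjusted p = 0.674), on a probe that lay in an uneven tile. Its next probe, outside those tiles, gave 0.25 ± 0.12 (limma adjusted p = 0.207 over all probes). Hdac2, the close paralogue of Hdac1, had -2.13 and -2.32 in the δ line with doxycycline and -2.40 and -2.34 without it, against -2.08 and -2.09 in the β line with doxycycline and -2.52 and -2.17 without it. Its average difference was -0.09 (interval -0.33 to 0.15), and that of Suz12 was -0.11 (interval -0.26 to 0.04). The paralogues Ezh1 and Ezh2 therefore gave average differences of 0.66 and 0.07, and the difference between them was not tested.

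**Figure D2:**
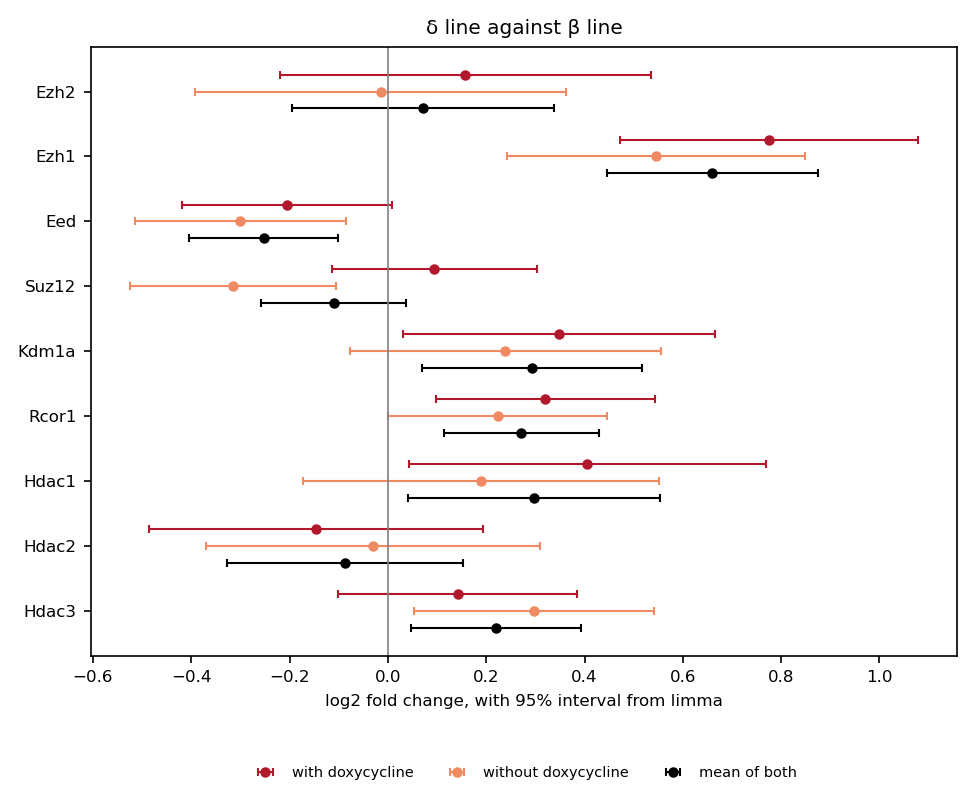
Log2 difference of the δ line from the β line for each member gene (horizontal axis, log2 units), with doxycycline, without it and as the mean of both, with 95% intervals from limma. Ezh1 stands at 0.78, 0.55 and 0.66, and the interval of Ezh2 spans 0 in all 3.

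Values of some cell-type markers move with the lines, and their part in the member differences was not tested. Krt14, a keratin of basal epithelium, had 1.27 and 1.098 in the δ line with doxycycline and 1.35 and 1.18 without it, against 4.97 and 4.74 in the β line with doxycycline and 4.88 and 5.14 without it. Krt5, a keratin gene on the same list, did not separate the lines in this way. It had -0.42 and -1.24 in the δ line with doxycycline and -0.39 and -0.41 without it. In the β line Krt5 had -0.30 and -0.40 with doxycycline and -0.13 and -0.52 without it. Of the 15 epithelial markers 11 were measured, and over both treatments 1 was called higher and 4 lower in the δ line. Of all genes 15.2% were called higher and 9.37% lower. The summed signal of the epithelial list was 7129 to 8486% of the array's 75th percentile on the δ arrays, against 11430 to 13310% on the β arrays. Most of the sum on the δ arrays was Ctsl, which stood at 5.65 to 6.02 there against 5.77 to 6.09 on the β arrays. Krt8 stood at 1.81 to 2.18 on the δ arrays against 3.89 to 4.13, and Cxcl12 at 2.16 to 2.44 against 1.42 to 1.84. The fibroblast list summed to 46040 to 47640% on the δ arrays, against 45310 to 57870% on the β arrays, a sum carried by its collagen genes and Dcn. Of its 7 genes 2 were called higher in the δ line over both treatments (Col1a2 and Pdgfrb) and 2 lower (Col1a1 and Thy1). Of all genes, again, 15.2% were called higher and 9.37% lower. The markers named here were chosen after their values were seen. Pdgfrb, a PDGF receptor gene, had 1.14 and 1.18 in the δ line with doxycycline and 1.29 and 1.22 without it, against -0.95 and -1.25 in the β line with doxycycline and -1.44 and -1.40 without it. Thy1 had 3.49 and 3.54 in the δ line with doxycycline and -0.0043 and 3.57 without it, against 5.63 and 5.65 in the β line with doxycycline and 5.53 and 5.76 without it, on a probe in an uneven tile. The endothelial list summed to 382.1 to 580.7% on the δ arrays, against 162.1 to 256.6% on the β arrays, and the leukocyte list to 3341 to 3635%, against 3589 to 5358%. The endothelial sum followed Kdr, a VEGF receptor gene, with 2.36 and 2.27 in the δ line with doxycycline and 1.76 and 1.68 without it. In the β line Kdr had 0.73 and 0.83 with doxycycline against -0.20 and -0.09 without it. Pecam1 stood at -1.52 to -0.77 on the δ arrays against -1.19 to -0.74 on the β arrays. Tek, well above background on 6 of 8 arrays, stood at -4.31 to -2.37 against -5.40 to -5.29. Of the 5 endothelial genes 2 were called higher in the δ line over both treatments, against 15.2% of all genes. With doxycycline in the β line 1 of the 5 was called higher, against 0.116% of genes. In these bulk samples fewer cells of a type and less RNA per cell cannot be told apart.

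Whether doxycycline changed the members was asked within each line. None of the 9 passed in either line, in the difference between lines or in the average of both. The threshold was met by 14 of all genes in the δ line (0.0736% of them), by 47 in the β line (0.247%), by 1 in the difference (0.00526%) and by 593 in the average (3.12%). Members at an unadjusted p below 0.05 numbered 2 in the δ line, against 15% of all genes, 1 in the β line, against 18.2%, 1 in the difference, against 7.53%, and 3 in the average, against 22.5%. At the adjusted threshold at most 3.12% of all genes passed in any of these comparisons, so the absence of member calls does not set these genes apart. The unadjusted shares of the 9 members were not tested against those of all genes.

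Suz12, the PRC2 subunit needed for complex stability, came closest in the β line. Its brightest probe had 1.68 and 1.70 in the β line with doxycycline against 2.12 and 2.07 without it, and the pairs did not overlap. The difference was -0.41 ± 0.09 (SE, n = 2 and 2; limma adjusted p = 0.0937). In the δ line the same probe had 1.83 and 1.74 with doxycycline against 1.76 and 1.81 without it, with an interval of -0.21 to 0.21 for the difference. The difference between the lines' effects was 0.41 (unadjusted p = 0.0145, adjusted p = 0.649). The second Suz12 probe differed by 0.25 in the β line, with the opposite sign and overlapping arrays.

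Hdac3, the deacetylase of the NCoR complex, had on its brightest probe 1.35 and 1.38 in the δ line with doxycycline against 1.74 and 1.72 without it. In the β line it had 1.22 and 1.23 with doxycycline against 1.33 and 1.54 without it. The average over both lines was -0.29 ± 0.07 (adjusted p = 0.0879), which did not pass. The dimmer probe of the same gene, A_65_P16459, ran the other way in each line, by 0.27 in the δ line and 0.21 in the β line, with no overlap between the pairs in either.

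Ezh1 had a difference with doxycycline of 0.38 ± 0.12 in the δ line (adjusted p = 0.288) and 0.15 ± 0.12 in the β line (adjusted p = 0.602). Hdac1 had 0.30 in the δ line and 0.09 in the β line, and Kdm1a 0.22 and 0.11. Hdac2, which has a single probe, had 0.15 in the δ line and 0.26 in the β line. Eed had -0.08 and -0.17, and Rcor1 had 0.05 and -0.05. Ezh2 had 0.15 in the δ line and -0.03 in the β line. Of these 7 genes, Ezh1 in the δ line alone had an interval that left out 0 (0.08 to 0.68).

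**Figure D3:**
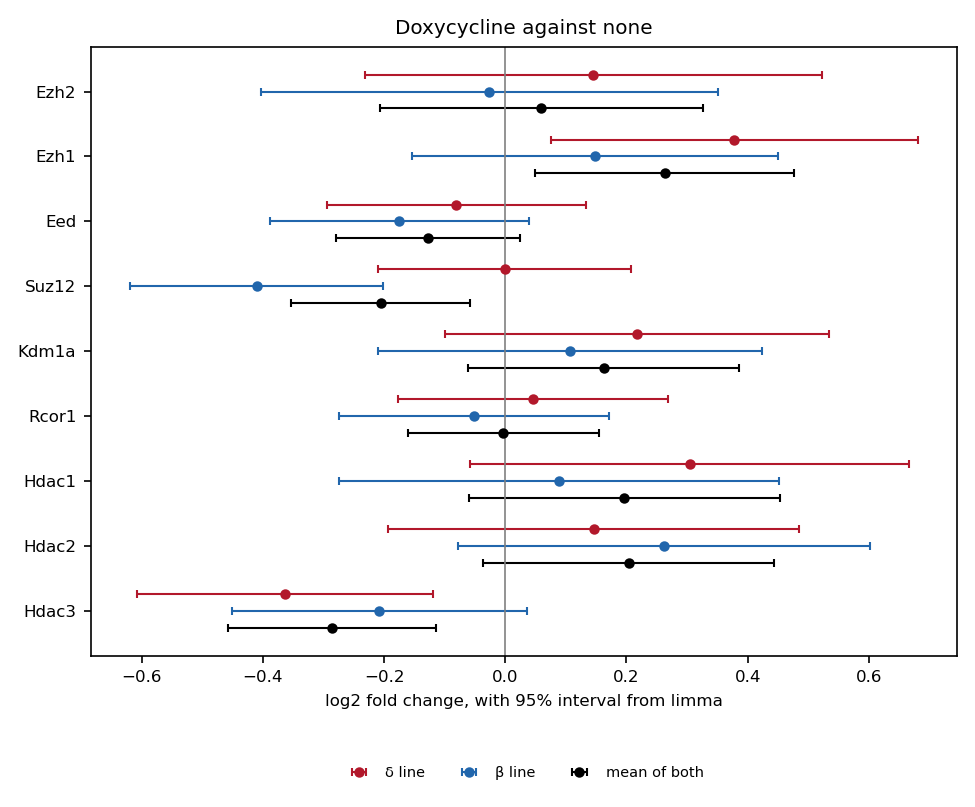
Log2 difference of doxycycline from no doxycycline for each member gene (horizontal axis, log2 units), in the δ line, in the β line and as the mean of both, with 95% intervals from limma. Suz12 in the β line (-0.41) and Hdac3 in the δ line (-0.36) have intervals below 0, and neither passed after adjustment.

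Groups that do not overlap were common across the array and are read against that. With doxycycline 4 members lay above and 2 below without overlap in the δ line, where 30.4% of all genes lay above and 27.6% below. In the β line 2 lay above and 4 below, against 26.6% and 20.3%. Between the lines with doxycycline 6 members were higher and 2 lower in the δ line without overlap, against 35.4% and 33.1% of genes, and without doxycycline 4 and 2, against 29% and 23.9%.

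Genes with several probes were read probe by probe, and the probes did not always agree. Ezh2 had 5 probes, whose differences with doxycycline ran from -0.53 to 0.15 in the δ line and from -0.51 to 0.21 in the β line. The lowest in the β line was A_51_P248067, which had 0.92 and 0.79 with doxycycline against 1.46 and 1.26 without it (adjusted p = 0.149 over all probes). The lowest in the δ line was A_55_P2619322, which had 0.11 and -0.002 with doxycycline against 0.55 and 0.62 without it (adjusted p = 0.382). Between the lines, averaged over both treatments, 4 of the 5 Ezh2 probes lay above 0, at -0.06 to 0.25. The 2 Suz12 probes ran opposite ways between the lines, the brighter by -0.32 without doxycycline and -0.11 on average and the dimmer by 0.34 and 0.12. The dimmer Hdac3 probe gave -0.06 on average, where the brighter gave 0.22. The 2 Hdac1 probes ran the same way: the dimmer, A_65_P09914, was higher in the δ line by 0.52 ± 0.11 over both treatments (adjusted p = 0.0281), and with doxycycline by 0.45 over both lines (adjusted p = 0.115). Of the 16 member probes 1, that of Ezh1, was called between the lines with doxycycline, against 7.31% of all probes, and 0 were called without it, against 7.19%. Over both treatments 2 of 16 were called, against 15.7%.

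**Figure D4:**
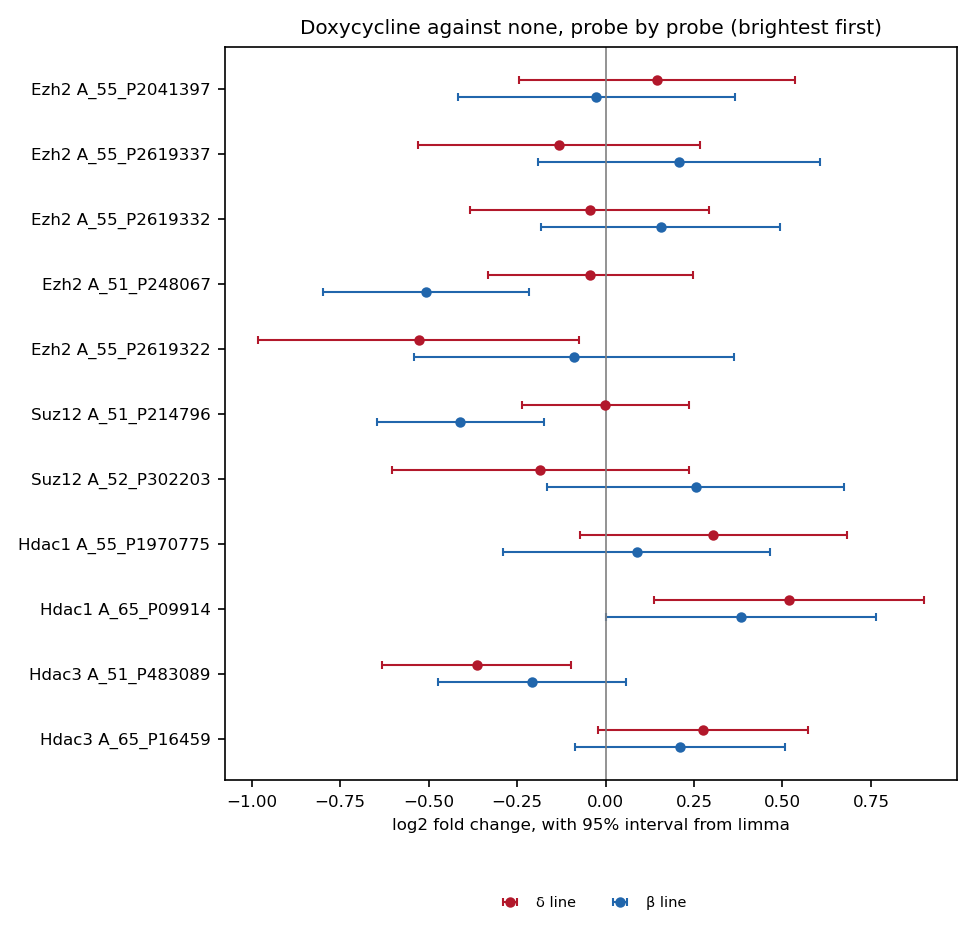
Log2 difference of doxycycline from no doxycycline (horizontal axis, log2 units) for every probe of the 4 members with several probes, brightest first within a gene, in the δ line and in the β line, with 95% intervals from limma. The Hdac3 probes lie on opposite sides of 0 (-0.36 and 0.27 in the δ line), and the 2 Hdac1 probes lie above 0 in both lines.

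The other genes of these complexes were taken from lists, and no gene of any such list passed with doxycycline in either line or in the difference between them. Averaged over both lines 1 proliferation gene passed, Aurkb, a mitotic kinase gene named here after its value was seen, at -0.50 ± 0.07 (adjusted p = 0.0336). Between the lines the lists held calls, and the following genes are those with the smallest p in each.

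Among 8 PRC2 partners, Jarid2, which helps recruit PRC2, was higher in the δ line by 1.05 with doxycycline (adjusted p = 0.00413) and by 1.12 without it (adjusted p = 0.00306), and kept its call in all 17 alternatives of each. Its second probe gave 1.15 and 1.51, and the brighter probe lay in an uneven tile. With doxycycline Mtf2, another accessory subunit, was higher by 0.58 (adjusted p = 0.0283), in 13 of 17 alternatives, and Epop by 0.95 (adjusted p = 0.0449), in 9 of 17. Without it Aebp2 was lower by 0.39 (adjusted p = 0.0472), a call kept in 4 of 17 alternatives, while its other probe gave 0.30. Over both treatments 3 of the 8 were called higher and none lower, where 15.2% of genes were called higher and 9.37% lower.

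Among 13 LSD1-CoREST partners, Zmym3 and Rcor2 were higher in the δ line with doxycycline. Zmym3 differed by 0.82 (adjusted p = 0.01), though its second probe gave 0.03, and Rcor2, a paralogue of Rcor1, by 0.51 (adjusted p = 0.0184). Zmym3 lost its call in 3 of 17 alternatives, among them the mean over probes, at 0.43, and Rcor2 in 4. Over both treatments 3 of the 13 were called higher and none lower, these 2 and Zmym2, against 15.2% of genes higher. Of 20 scaffolds of class I deacetylases 1 was called without doxycycline, against 13.2% of genes, and none with it. This was Tbl1xr1, higher by 0.50 (adjusted p = 0.0388), on a probe in an uneven tile and in 5 of 17 alternatives. Its other 2 probes gave 0.63 and -0.01. Over both treatments 3 of the 20 were called higher and none lower, Tbl1xr1, Gps2 and Mta3, against 15.2% of genes higher. Among the 8 other deacetylases Hdac11 was higher by 1.07 with doxycycline (adjusted p = 0.00879) and by 1.41 without it (adjusted p = 0.00297), on a dim probe at -2.85 and -2.88 in the δ line with doxycycline against -4.12 and -3.74 in the β line with it. Its call was lost in 2 of 17 alternatives with doxycycline, and normexp correction gave 0.55 with doxycycline and 0.81 without it. Over both treatments 3 of the 8 were called higher and none lower, Hdac11, Hdac8 and Hdac6, against 15.2% of genes higher. The genes named for the averages over both treatments were chosen after their values were seen.

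Among the 15 PRC1 genes measured of 16, Pcgf2 (0.46) was called higher in the δ line without doxycycline, in 6 of 17 alternatives, and Phc1 (0.44) with it, in 8 of 17. PRC1 is the complex that reads the mark PRC2 writes. Over both treatments 5 of 15 were called higher, against 15.2% of genes, and none lower, and 13 lay above 0 with a median of 0.26, against 49.2% of all genes above 0. Of 12 enzymes that act against the repressors, Kdm6b, a demethylase of the PRC2 mark, was higher by 0.67 with doxycycline (adjusted p = 0.011) and by 0.70 without it (adjusted p = 0.00892), calls lost in 3 and 1 of 17 alternatives. Kmt2b was higher with doxycycline by 0.45 (adjusted p = 0.0444), in 8 of 17 alternatives. Over both treatments 2 of these 12 enzymes were called higher and none lower, against 15.2% of genes higher. As with PRC1 most lay above 0, 11 of 12 with a median of 0.14, against 49.2% of all genes above 0.

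Proliferation genes, whose levels go with those of Ezh2 in many tissues, lay mostly below 0 between the lines (δ minus β). Without doxycycline 18 of 19 lay below 0, with a median of -0.24, where 53% of all genes lay above 0. Called lower were 3, against 5.28% of genes: E2f2 at -1.05, Cdk1 at -0.71 and Mcm5 at -0.59. With doxycycline 14 of 19 lay below 0, with a median of -0.13, where 49% of all genes lay above 0, and 2 were called lower, E2f2 at -0.81 and Cdk1 at -0.48, against 5.51% of genes. The E2f2 call held in all 17 alternatives in both. Cdk1 lost its call in 5 of 17 with doxycycline and in 1 without it, and Mcm5 in 5. Over both treatments 4 of 19 were called lower, where 9.37% of genes were. The part of proliferation in the Ezh1 difference was not tested.

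Among the listed genes, 4 had probes in dark tiles of replicate 1 of the untreated δ line: Phf21a, Chd3, Tbl1x and Aurka, named here after their values were seen. Phf21a, which binds unmethylated histone H3 in the LSD1 complex, had 3.81 and 3.81 in the δ line with doxycycline and -6.84 and 3.44 without it, against 2.80 and 2.78 in the β line with doxycycline and 2.74 and 2.79 without it. The other 3 δ arrays lay above all 4 β arrays. Its average difference between the lines was -1.73 ± 2.08 (adjusted p = 0.587), which includes the dark-tile value.

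**Figure D5:**
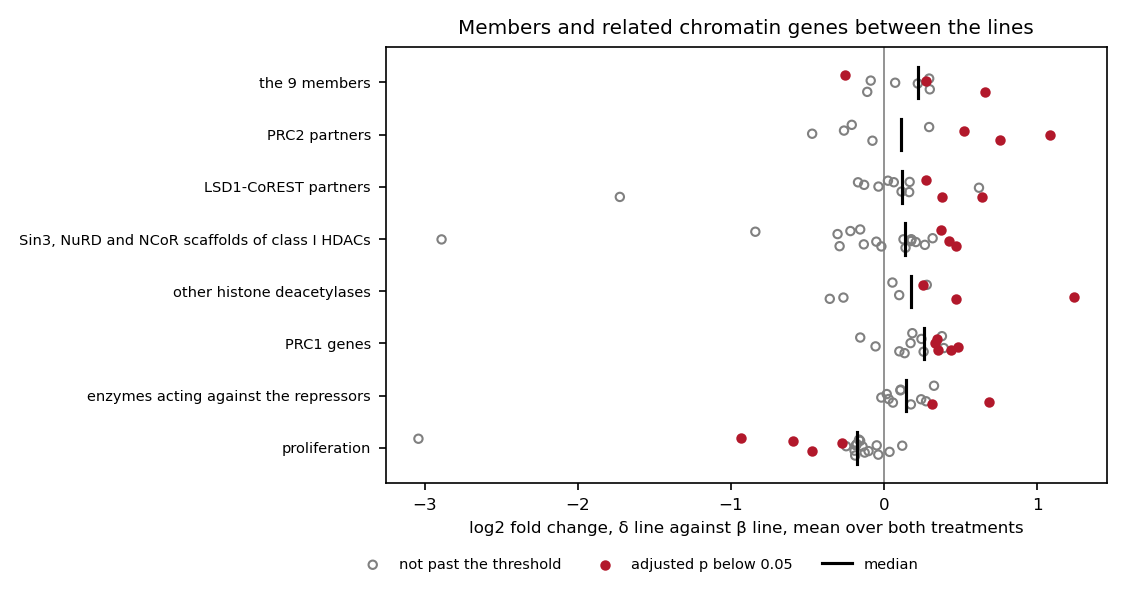
Log2 difference of the δ line from the β line averaged over both treatments (horizontal axis, log2 units), with a point per gene of each list, filled where the adjusted p was below 0.05, and a bar at the list's median. The PRC1 median stands at 0.26 and the proliferation median at -0.18.

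The genes whose pattern across the 8 arrays was most like each member were listed by Pearson's r among 15195 genes well above background on every array, as a description only, since all values share the 8 arrays. Those closest to Ezh1 were Tdrkh (r = 0.9979) and Cacfd1 (0.9925). Those closest to Ezh2 were Coq2 (0.9391) and Cpsf1 (0.9378). Eed was closest to Ccdc134 (0.9965) and Dusp6 (0.993), and Suz12 to Sertad4 (0.9762) and Kansl2 (0.9664). Kdm1a was closest to Ubash3b (0.9927) and Ccny (0.9904), and Rcor1 to Ccdc22 (0.9868) and Bnc1 (0.9833). Hdac1 was closest to Dcun1d1 (0.9915) and Golph3l (0.9895), Hdac2 to Hs3st2 (0.9768) and Arid3a (0.9582), and Hdac3 to Bcorl1 (0.9846) and Gin1 (0.9819). Among the members themselves Kdm1a and Hdac1 gave r = 0.988 and Ezh1 and Kdm1a 0.902, whereas Ezh1 and Eed gave -0.868.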

How the data were processed

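Per the file headers, the authors extracted each array with Agilent Feature Extraction 11.5.1.1 (the submitters' processing notes give 11.5.11). They deposited background-subtracted, detrended intensity values (the processed signal) for 1 colour. The multiplicative detrending step had an effect of 0 on 3 arrays, all with doxycycline: β replicate 2 and δ replicates 1 and 2. Its effect was 0.0811066 on β doxycycline replicate 1 and 0.0671263 to 0.126305 on the untreated arrays. The part of this step in the differences with doxycycline was not tested. Per the file headers the design was annotated on mm9, so no gene coordinate was taken from the annotation table used for names. From the deposited intensity, log2 values were computed here after leaving out control spots and outlier-flagged spots (98 probes had no other spot), averaged per probe and centred on each array's 75th percentile.

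Of 56605 probes, 32931 were named through the RefSeq gene table of GRCm38.p6 by accession without version, and 23576 were not. Probes well above background on 2 arrays of at least 1 group (44321) were kept, and each gene was read by its brightest kept probe (19023 genes). limma 3.58.1 in R 4.3.3 (lmFit and eBayes) was fitted on all 8 arrays with 1 mean per group, which leaves 4 residual degrees of freedom, two-sided, with Benjamini-Hochberg adjustment over all genes at 0.05; a second fit took all kept probes. It was tested on simulated data. The number of arrays limits the precision.

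The members and lists were chosen with earlier results of these data known. The text names all members and their probes, Gtf2i, up to 3 genes per direction with the smallest p among those called in each list, and the 2 genes most correlated with each member; exceptions are marked where they occur. One list gene that this rule names is not reported here. The averages over both lines and over both treatments were added after seeing the data. The files hold no mean spot signal, so the normexp alternative (offset 50) used the median signals. Deviations of arrays sharing a slide column correlated at 0.076 in the δ line and 0.019 in the β line over 19023 genes, so the arrays were not treated as paired. Alternatives were other background corrections, scalings, filters, probe rules, array subsets, a block, an intensity trend, leaving out uneven tiles and leaving out each array.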

Additional observations from a re-analysis of the deposited data

How the results depend on the processing

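No member passed with doxycycline under any alternative run, and the Ezh1 average between the lines passed in all 16. Of 1080 comparisons of member values with an alternative, 1001 kept their direction and side of the threshold, 27 lost and 13 gained a call, and 39 changed sign, all of these from values that did not pass. The cause of these changes was not tested. Counts of all genes called moved as follows. With doxycycline in the δ line, 14 genes became 5 with normexp correction, 7 with median centring, 803 with no filter, 44 with probes above background on all arrays, 31 with the mean over probes, 1 with only the 4 arrays compared, 25 with an intensity trend, 58 without uneven tiles, and 1 to 1621 when 1 array was left out. In the β line, 47 became 13, 14, 2, 333, 0 (4 arrays), 240 (trend), 274 (uneven tiles) and 0 to 245. The difference between lines, 1, became 0 with normexp, all-array probes or a trend, 2 without uneven tiles, and 1 to 1056. The average with doxycycline, 593, became 202 (normexp), 182 (median centring), 2209 (no filter), 950 (all-array probes), 921 (trend), 962 (uneven tiles) and 5 to 2273. Between the lines, 2513 without doxycycline became 716 with 4 arrays and 1463 to 3761 with 1 array left out, 2903 with doxycycline became 4117 with 4 arrays and 697 to 3253 with 1 left out, and 4684 on average became 2452 to 5592. A fit with the slide column as replicate block was run for the differences with doxycycline only. It gave counts of 1 in the δ line, 0 in the β line, 0 in the difference and 1 on average. The columns do not pair the arrays. No member was called with doxycycline with or without this block. The member calls all lie between the lines, which have separate columns, so this block could not test them. Of the calls with doxycycline, 28.6% were higher with median centring in both lines, 0% and 23.1% with normexp and 11.1% and 28.3% with quantile normalization in the δ and β lines, against 4 of 14 and 22 of 47 as reported. Without replicate 2 of the untreated δ line, 82.7% of 1621 calls in the δ line were higher, and without either untreated δ array 64.1% of 245 in the β line. These values changed sign. Without uneven tiles, Ezh2 gave -0.13 (δ doxycycline), 0.21 (β doxycycline), -0.34 (difference) and 0.42 (lines untreated). With the mean over probes, Ezh2 gave -0.12 (δ doxycycline), -0.0686 (difference), 0.15 (lines untreated) and -0.0864 (average doxycycline), Suz12 -0.0144 (difference), 0.0137 (lines untreated), -0.0007 (lines with doxycycline) and 0.0065 (average of lines), and Hdac3 0.0014 (β doxycycline). With median centring, Ezh2 gave 0.0079 (lines untreated), Suz12 0.018 (δ doxycycline) and Gtf2i 0.0432 (difference). With normexp, Ezh2 gave -0.028 (average of lines), Eed 0.0264 and Suz12 0.0127 (δ doxycycline), Gtf2i 0.0145 (difference), Ezh2 probe A_55_P2619332 -0.0012 (average doxycycline) and A_51_P248067 0.0233 (δ doxycycline) and 0.0836 (average of lines). With 1 array left out, doxycycline in the δ line ranged over -0.0149 to 0.31 for Ezh2, -0.0443 to 0.0432 for Suz12, -0.0157 to 0.11 for Rcor1 and -0.0148 to 0.20 for Gtf2i; in the β line over -0.19 to 0.14 for Ezh2, -0.0377 to 0.25 for Kdm1a, -0.0831 to 0.26 for Hdac1 and -0.0104 to 0.23 for Gtf2i; their difference over -0.036 to 0.25 for Kdm1a, -0.29 to 0.058 for Hdac2 and -0.14 to 0.10 for Gtf2i; the average over -0.023 to 0.14 for Ezh2 and -0.0337 to 0.0272 for Rcor1. Between the lines, Ezh2 ranged over -0.17 to 0.15 untreated, -0.0069 to 0.32 with doxycycline and -0.0106 to 0.15 on average, and Hdac2 over -0.20 to 0.14 untreated.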
